A study of Mus musculus with 38 samples.

Results

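Olfm4 and 8 other marker genes of intestinal stem cells (Lgr5, Ascl2, Smoc2, Soat1, Aqp4, Slc12a2, Axin2 and Cd44) were followed in cultured mouse intestinal organoids. The 9 genes were chosen by symbol, with earlier results of these data known. Each matched 1 Ensembl identifier among the 54352 rows of the count table. Of the 9 genes, 7 passed the filter on low counts and were among the 4902 genes tested. Lgr5 and Axin2 did not pass it, and their counts are described without that test.

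The study measured polyadenylated RNA by high-throughput 3′ digital gene expression, a method that reads tags near the 3′ end of transcripts. Organoids were grown from isolated crypts of C57BL6 mice in 65% matrigel for 8 days and 2 passages, with 1 uM GW501516 (GW), a synthetic ligand that activates the nuclear receptor PPARδ, or with 0.1% DMSO as vehicle. The genotypes were Wildtype (WT), Ppard-fl/fl (D), Ppara-null (A) and Ppard-fl/fl; Ppara-null (DA), where Ppard encodes PPARδ and Ppara the related receptor PPARα. WT and A each had 5 libraries per treatment, D had 5 with vehicle and 3 with GW, and DA had 4 with vehicle and 5 with GW. The labels call the Ppard allele floxed and name no recombinase, although the series text calls these mice knockouts. They give no age and do not state if replicates are different animals or cultures, so every p-value measures a spread between libraries that may be technical.

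Crypt base columnar cells, which carry the Wnt-amplifying receptor Lgr5, divide at the bottom of the crypt and renew the intestinal epithelium. Wnt signals from Paneth cells and from the surrounding tissue hold them in the stem cell state, and Notch signalling keeps them out of the secretory lineage. Olfm4 encodes a secreted glycoprotein that marks these cells in the small intestine, and in the mouse it depends on Notch.

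Total counts ran from 353347 to 577557 per library, and levels are given as CPM, counts scaled to a library sum of 1000000. Library numbers in the column names fell into 1 to 36 (23 libraries) and 37 to 60 (14 libraries), and these runs separated along the first principal component (13.0% of variance). Every group had libraries in both runs. The numbers can also be cut into 6 sets, a new one starting at each vehicle WT library, that hold at most 1 library of a group. Of the 37 libraries, 36 deviated from their group mean most like a library of their own set among the libraries of other groups, and the labels do not say what a set is. The genotypes were checked on Ppara, which had 2 to 13 counts per library in WT and 1 to 13 in D. Both genotypes labelled Ppara-null had 0 to 3, so the ranges overlapped and single libraries could not always be placed. Ppard had 0 to 4 counts in every group, too few to check its deletion. The labels do not join 1 unassigned sample to a column, and by the labels alone it may be among the 3 GW columns used in D. Listed in record order, the groups of the other samples match the 37 used columns in order of library number. In that order the unassigned sample falls between libraries 2 and 4, and the 3 columns used for GW in D are libraries 14, 31 and 54. The labels do not state that the orders correspond. Epithelial markers were abundant: summed Paneth cell markers, of which 14 of 18 could be tested, had at least 9735 CPM in each library. Of 15 immune cell markers, 10 had no count in any library, and the sum over the list was 0 to 7.40 CPM. Of 14 stromal markers, 9 had no count, the collagens Col1a1, Col1a2 and Col3a1 among them. The stromal list still summed to 15.2 to 56.7 CPM per library. In these bulk samples fewer stem cells and less RNA per cell cannot be told apart.

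Olfm4 (ENSMUSG00000022026, mm10 chr14:79984081-80023139, plus strand) had 1215 counts in all, 12 to 84 per library. It is the gene whose levels the results turn on, so the bases before its start are shown. RefSeq (GRCm38.p6) gives the following 250 bases directly upstream of the transcript start, at chr14:80000052-80000301 on the plus strand, a window that lies inside the GENCODE gene because GENCODE also annotates an earlier start. Capitals mark TGGGAA, the core that the Notch effector RBPJ binds.
Olfm4 upstream: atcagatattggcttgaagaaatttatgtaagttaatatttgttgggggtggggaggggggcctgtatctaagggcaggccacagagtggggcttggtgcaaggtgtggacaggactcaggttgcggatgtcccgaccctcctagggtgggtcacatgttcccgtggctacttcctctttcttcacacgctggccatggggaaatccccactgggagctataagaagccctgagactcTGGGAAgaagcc

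The core lies 12 to 7 bases before the start. Promoter windows of 250 bases before to 50 bases after the start were at hand for 5 of the 9 genes (Olfm4, Ascl2, Soat1, Axin2 and Cd44) among 32851 RefSeq promoters, and both strands were searched. TGGGAA was in 2 of the 5, Olfm4 and Cd44, and in 25.6% of all promoters. The PPAR-RXR direct repeat, AGGTCA repeated with 1 base between, was in 0 of the 5 and in 0.0396% of all promoters. The TCF/LEF letters CTTTGAA or CTTTGAT, through which Wnt signals act, were in 0 of the 5 and in 8.65% of all. These are matches of letters in short windows and say nothing of binding.

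GW was given to ask whether the PPARδ agonist changes gene expression in stem cell organoids and whether the receptors are needed. Olfm4 was lower with GW on average over the genotypes, and it was the single member of the 7 tested that passed the test in any of the 14 comparisons made. Over the 19 vehicle libraries Olfm4 had 45.6 CPM at the lowest, 76.5 at the median and 171 at the highest, and over the 18 GW libraries 24.9, 51.4 and 83.9 CPM. Of the GW libraries, 17 of 18 lay below the vehicle median, and the libraries of the 2 treatments overlapped. With each genotype weighted equally, Olfm4 fell by 0.74 ± 0.15 on the log2 scale (SE; 95% interval -1.04 to -0.44), 1.67-fold lower with GW (Benjamini-Hochberg adjusted p = 0.00385 over 4902 genes in edgeR's quasi-likelihood test). This mean GW effect was called for 0.653% of all tested genes, and for 0.0816% in the lower direction, where Olfm4 was 1 of 4 genes.

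Averaged over WT, A and DA only, a setting added after the data were seen, the log2 change of Olfm4 was -0.74 (adjusted p = 0.0133 in the same test). Within libraries 1 to 36 the mean effect of GW on Olfm4 was -0.78 ± 0.21 and within 37 to 60 it was -0.70 ± 0.19, and neither passed over all genes with the fewer libraries (adjusted p = 0.155 and 0.127, edgeR). With the runs as a block in 1 fit it was -0.74 ± 0.15 (adjusted p = 0.00322, edgeR). With the 6 sets as a block, added after the data were seen, the mean effect on Olfm4 was -0.77 ± 0.14 (adjusted p = 0.000528, edgeR), and no other member passed in any comparison. Of 15 pairs of a vehicle and a GW library of the same genotype and set, Olfm4 was lower with GW in 12, made up of 3 of 4 in WT, 2 of 3 in D, 4 of 4 in A and 3 of 4 in DA. Total counts moved with treatment, with a median of 511281 in vehicle and 463544 with GW. The mitochondrial share of counts was 7.76% to 10.2% in vehicle and 7.55% to 10.6% with GW. Their part in the Olfm4 difference was not tested.

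**Figure D1:**
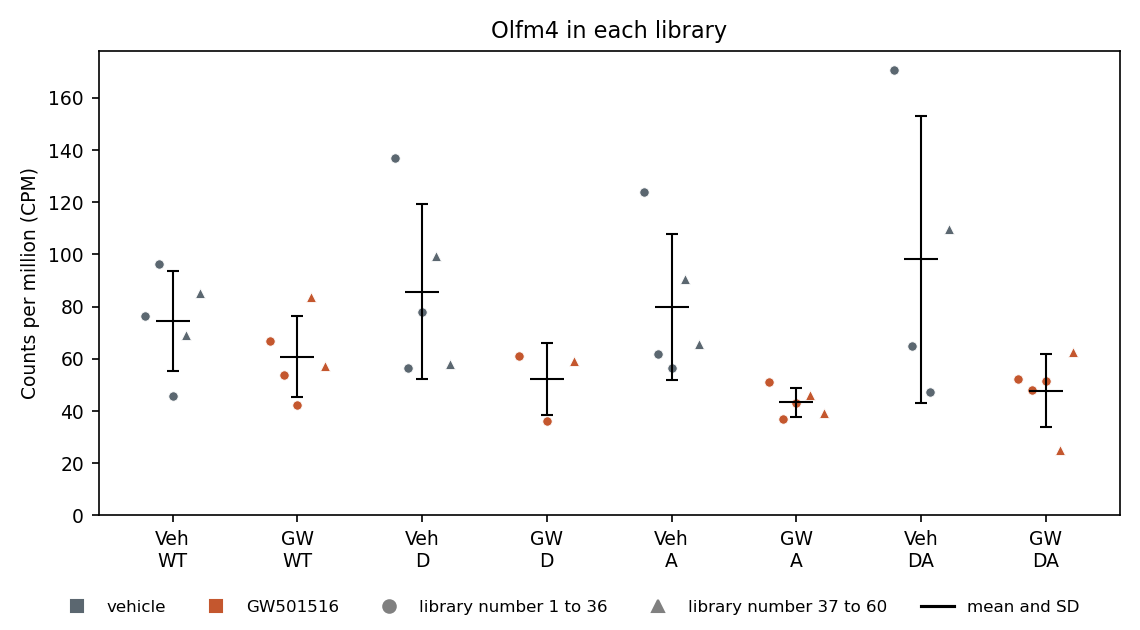
Olfm4 in CPM (vertical axis) in each of the 37 libraries of the 8 groups, with vehicle in grey and GW in orange, circles for libraries 1 to 36, triangles for 37 to 60, and bars for the mean and SD. In A the 5 GW libraries, 36.9 to 51.2 CPM, all lie below the 5 vehicle libraries, and in the other genotypes the groups overlap.

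In WT, the vehicle libraries had 76.5, 96.4, 45.6, 69.2 and 85.3 CPM of Olfm4 and the GW libraries 66.7, 53.7, 42.4, 83.9 and 57.2. The ranges overlapped over most of their length, and 1 GW library lay below all vehicle libraries. The log2 difference of -0.35 ± 0.28 missed the threshold (adjusted p = 0.872, edgeR, with 0.408% of genes called).

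In D, Olfm4 had 137, 56.6, 77.9, 99.4 and 58.0 CPM in vehicle and 60.9, 36.4 and 59.2 CPM with GW. A single vehicle library stood high, and the ranges overlapped between 56.6 and 60.9 CPM. The log2 difference of -0.73 ± 0.33 did not pass (adjusted p = 1.00, edgeR, with 0.0% of genes called).

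In A, the vehicle libraries of Olfm4 had 124, 62.0, 56.7, 90.8 and 65.9 CPM and the GW libraries 51.2, 36.9, 42.9, 46.2 and 39.3. All 5 GW libraries lay below all 5 vehicle libraries. The log2 difference was -0.85 ± 0.29, 1.80-fold lower, and did not pass over all genes (adjusted p = 0.693, edgeR, with 0.306% of genes called).

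In DA, vehicle gave 171, 64.9, 47.3 and 110 CPM of Olfm4 and GW gave 52.1, 48.1, 51.7, 24.9 and 62.5. Replicates 1 and 4 of vehicle stood above every GW library, and replicate 3 of vehicle lay among them. The log2 difference of -1.02 ± 0.29, 2.03-fold lower, did not pass (adjusted p = 1.00, edgeR, with 0.0% of genes called), and it passed without the filter on low counts (-1.03, adjusted p = 0.0222, edgeR). Where no gene was called, 159 genes in D and 157 in DA had an unadjusted p under 0.05. DESeq2 called 0 genes in D and 1 in DA, and limma-trend 0 in both.

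An exact two-sided permutation test on log2(CPM + 1) of Olfm4 gave p = 0.270 in WT, 0.196 in D, 0.00794 in A and 0.0873 in DA. The value in A is the smallest that 5 against 5 libraries can give. Adjusted over the 4 genotypes by Benjamini-Hochberg, the exact p was 0.0317 in A, 0.175 in DA, 0.262 in D and 0.270 in WT. Permuted within the runs of library numbers, the exact test in A gave an adjusted p of 0.0667, and it gave 0.0635 with any 1 of the GW libraries in A left out. In both cases all GW libraries of A still lay below all vehicle libraries, and fewer relabelings were possible. With any 1 of the vehicle libraries in A left out, fewer relabelings were possible as well, and the exact test in A still passed. Before adjustment, the p within runs was the smallest that permuting within runs can give in A. Without vehicle replicate 3 in DA, the exact permutation test in DA gave an adjusted p of 0.0357. This was the only 1 of the 9 leave-outs in DA that passed, and their adjusted p in the exact test reached 0.270.

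Whether the Olfm4 response depended on the receptors was tested as the difference between responses. The estimated fall of Olfm4 with GW was smallest in WT. On the log2 scale the fall was larger than in WT by 0.38 ± 0.44 in D, 0.50 ± 0.40 in A and 0.67 ± 0.40 in DA. The log2 differences were -0.38 with a 95% interval of -1.27 to 0.50 in D, -0.50 with -1.31 to 0.32 in A and -0.67 with -1.49 to 0.15 in DA. No response difference of Olfm4 passed (adjusted p = 1.00 in each, edgeR), with 0.0% of genes called for D, 0.0% for A and 0.0816% for DA. The 3 response differences share the WT libraries. All 7 tested members had an unadjusted p of 0.05 or more in these 3 comparisons, and DESeq2 and limma-trend called 0 members. Over all genes, 158 for D and 163 for A had an unadjusted p under 0.05, DESeq2 called 0 and 0, and limma-trend 1 and 0.

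Knockouts were also compared with WT within a treatment, to see whether the receptors set the level of Olfm4. In vehicle the log2 difference of Olfm4 was 0.21 ± 0.27 in D, 0.02 ± 0.27 in A and 0.32 ± 0.28 in DA (adjusted p = 1.00, 0.999 and 0.967, edgeR). With GW it was -0.17 ± 0.35 in D, -0.48 ± 0.30 in A and -0.35 ± 0.30 in DA (adjusted p = 1.00, 0.989 and 0.813, edgeR). None passed, where 0.0408%, 0.0816% and 0.326% of genes were called in vehicle for D, A and DA, and 0.0612%, 0.184% and 0.836% with GW. In the order of group means Olfm4 ran from vehicle in DA (98.2 ± 55.1 CPM, SD, n = 4) over vehicle in D (85.8 ± 33.5, n = 5), A (79.8 ± 27.9, n = 5) and WT (74.6 ± 19.2, n = 5) to GW in WT (60.8 ± 15.6, n = 5), D (52.2 ± 13.7, n = 3), DA (47.9 ± 13.9, n = 5) and A (43.3 ± 5.65, n = 5). All 4 vehicle groups stood above all 4 GW groups. No neighbours in this order differed by more than the larger of their SDs, and the ranges of each of the 7 neighbouring pairs overlapped.

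**Figure D2:**
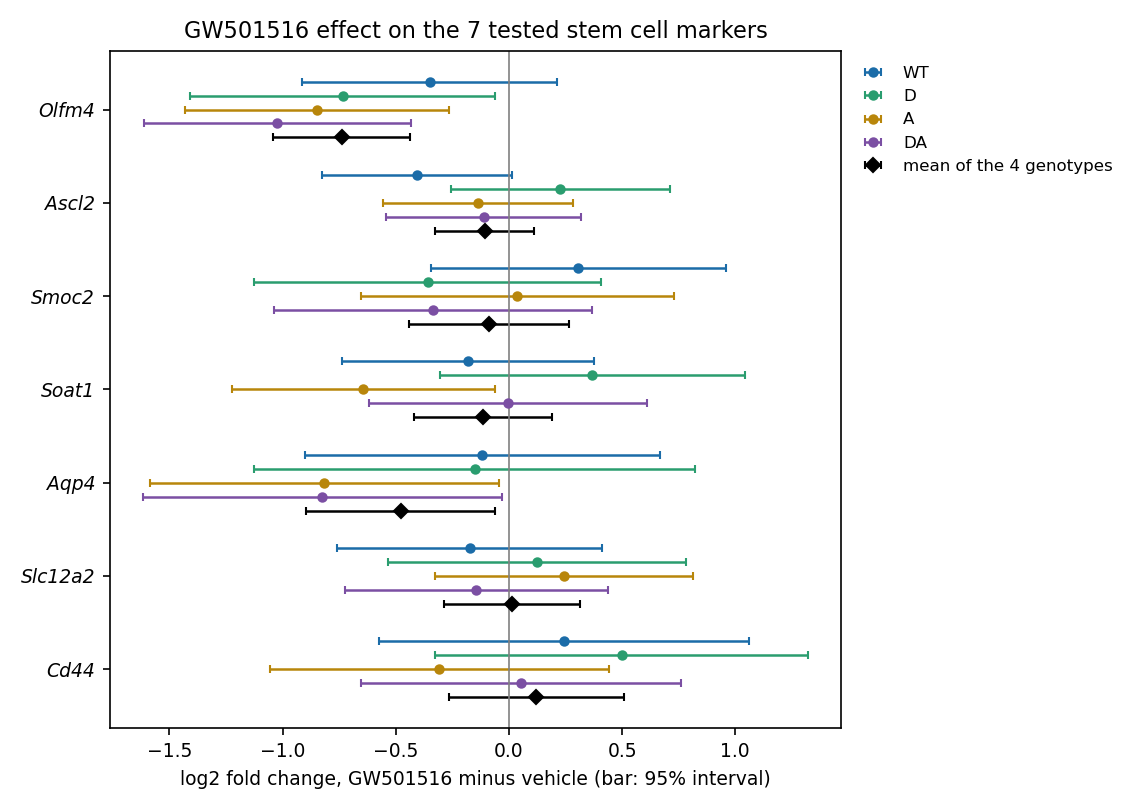
Log2 fold change of GW minus vehicle (horizontal axis) with unadjusted 95% intervals for the 7 tested members, in each genotype (circles) and as the mean of the 4 genotypes (black diamonds). Olfm4 lies below 0 in all genotypes with a mean of -0.74, and of the other means only that of Aqp4 has an interval below 0, which did not pass after adjustment over all genes.

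The 6 other tested members did not pass in any of the 14 comparisons. Their lowest adjusted p in edgeR's quasi-likelihood test was 0.532, for Cd44 in DA against WT with GW. DESeq2 and limma-trend called 0 of them as well, and 6 of their 84 differences (7.14%) had an unadjusted p under 0.05: 3 of Aqp4, 2 of Cd44 and 1 of Soat1. Over all tested genes and the same 14 comparisons that share was 4.62%, from 3.20% to 8.69% by comparison. The median mean GW effect over the 7 tested members was -0.11 in log2, against 0.00 over all 4902 genes, with 2 members higher and 5 lower.

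Among transcription factors, Ascl2, a Wnt target that maintains stem cell identity (mm10 chr7:142966829-142969264), was the most deeply counted member with 1362 counts. Its group means lay within 1.31-fold of each other, from 66.0 ± 9.48 CPM with GW in WT (SD, n = 5) to 86.3 ± 11.9 in vehicle in DA (n = 4). The mean GW effect on Ascl2 was -0.11 ± 0.11 in log2, with a 95% interval of -0.33 to 0.11 (adjusted p = 0.944, edgeR).

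Among the receptors and surface proteins, Cd44, a hyaluronan receptor and Wnt target (chr2:102811141-102901665), had 428 counts, 2 to 30 per library. In WT it had 29.2, 22.7, 3.96, 8.65 and 13.3 CPM in vehicle and 16.2, 15.7, 14.1, 32.1 and 17.8 with GW. In DA the vehicle libraries of Cd44 had 36.6, 35.2, 20.6 and 34.1 CPM and the GW libraries 31.3, 35.4, 33.1, 29.1 and 35.1. Most DA libraries stood above most WT libraries, and the groups overlapped in both treatments. Cd44 in DA against WT had a log2 difference of 0.96 ± 0.39 in vehicle and 0.77 ± 0.36 with GW, with an unadjusted p of 0.0178 and 0.0413, and did not pass over all genes (adjusted p = 0.665 and 0.532, edgeR). With GW, Cd44 had 32.3 ± 4.18 CPM in D (SD, n = 3) beside 32.8 ± 2.68 in DA (n = 5). The log2 difference of Cd44 from WT was 0.56 ± 0.39 in D and 0.63 ± 0.38 in A with vehicle. With GW the difference was 0.81 ± 0.42 in D and 0.08 ± 0.39 in A, and none of these passed. The mean GW effect on Cd44 was 0.12 ± 0.19 (adjusted p = 0.963, edgeR).

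Aqp4, a water channel of the stem cell signature (chromosome 18), had 333 counts, 2 to 22 per library. In A it had 29.9, 14.5, 26.0, 35.2 and 23.8 CPM in vehicle and 20.03, 11.7, 12.6, 18.1 and 8.74 with GW. In DA the vehicle libraries of Aqp4 had 30.5, 40.8, 16.4 and 18.9 CPM and the GW libraries 14.6, 27.8, 8.27, 6.23 and 19.5. GW libraries were mostly the lower ones in both genotypes, and the groups overlapped. Aqp4 gave a log2 difference of -0.82 ± 0.38 in A and -0.82 ± 0.39 in DA, with unadjusted p of 0.0385 and 0.0419 (adjusted p = 0.999 and 1.00, edgeR). Its mean GW effect of -0.48 ± 0.21, 1.39-fold lower, had an unadjusted p of 0.0259 and did not pass either (adjusted p = 0.582, edgeR). In WT and D the group means of Aqp4 were 19.2 ± 10.8 and 16.6 ± 6.48 CPM in vehicle and 17.6 ± 8.13 and 14.3 ± 5.09 CPM with GW (SD, n = 5, 5, 5 and 3).

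Slc12a2, the basolateral sodium-potassium-chloride cotransporter (chromosome 18), had 940 counts and group means of 46.8 to 61.3 CPM. Its mean GW effect was 0.01 ± 0.15 in log2, with a 95% interval of -0.29 to 0.31 (adjusted p = 0.992, edgeR). Single libraries set much of its spread: in WT with GW the libraries had 40.4, 40.3, 25.9, 93.8 and 33.6 CPM. The direction of so small a difference changed under several settings of the analysis.

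Soat1, which esterifies cholesterol (chr1:156424525-156474331), had 494 counts and group means of 21.3 to 34.2 CPM. In A it had 34.2, 39.3, 33.0, 27.8 and 36.6 CPM in vehicle and 26.7, 29.1, 25.2, 12.1 and 13.1 with GW. Only the highest GW library reached into the vehicle range. Soat1 in A had a log2 difference of -0.64 ± 0.29, with an unadjusted p of 0.0306 that did not hold over all genes (adjusted p = 0.999, edgeR). Both low GW libraries belong to the run 37 to 60. Over the genotypes the mean GW effect on Soat1 was -0.12 ± 0.15 (adjusted p = 0.957, edgeR).

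Smoc2, a secreted matrix protein that binds calcium (chr17:14279506-14404790), was the thinnest tested member with 249 counts, 3 to 14 per library. Its group means were 11.9 to 17.2 CPM, and every group overlapped its neighbours in the order of means. The mean GW effect on Smoc2 was -0.09 ± 0.17, with a 95% interval of -0.44 to 0.26 (adjusted p = 0.972, edgeR).

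**Figure D3:**
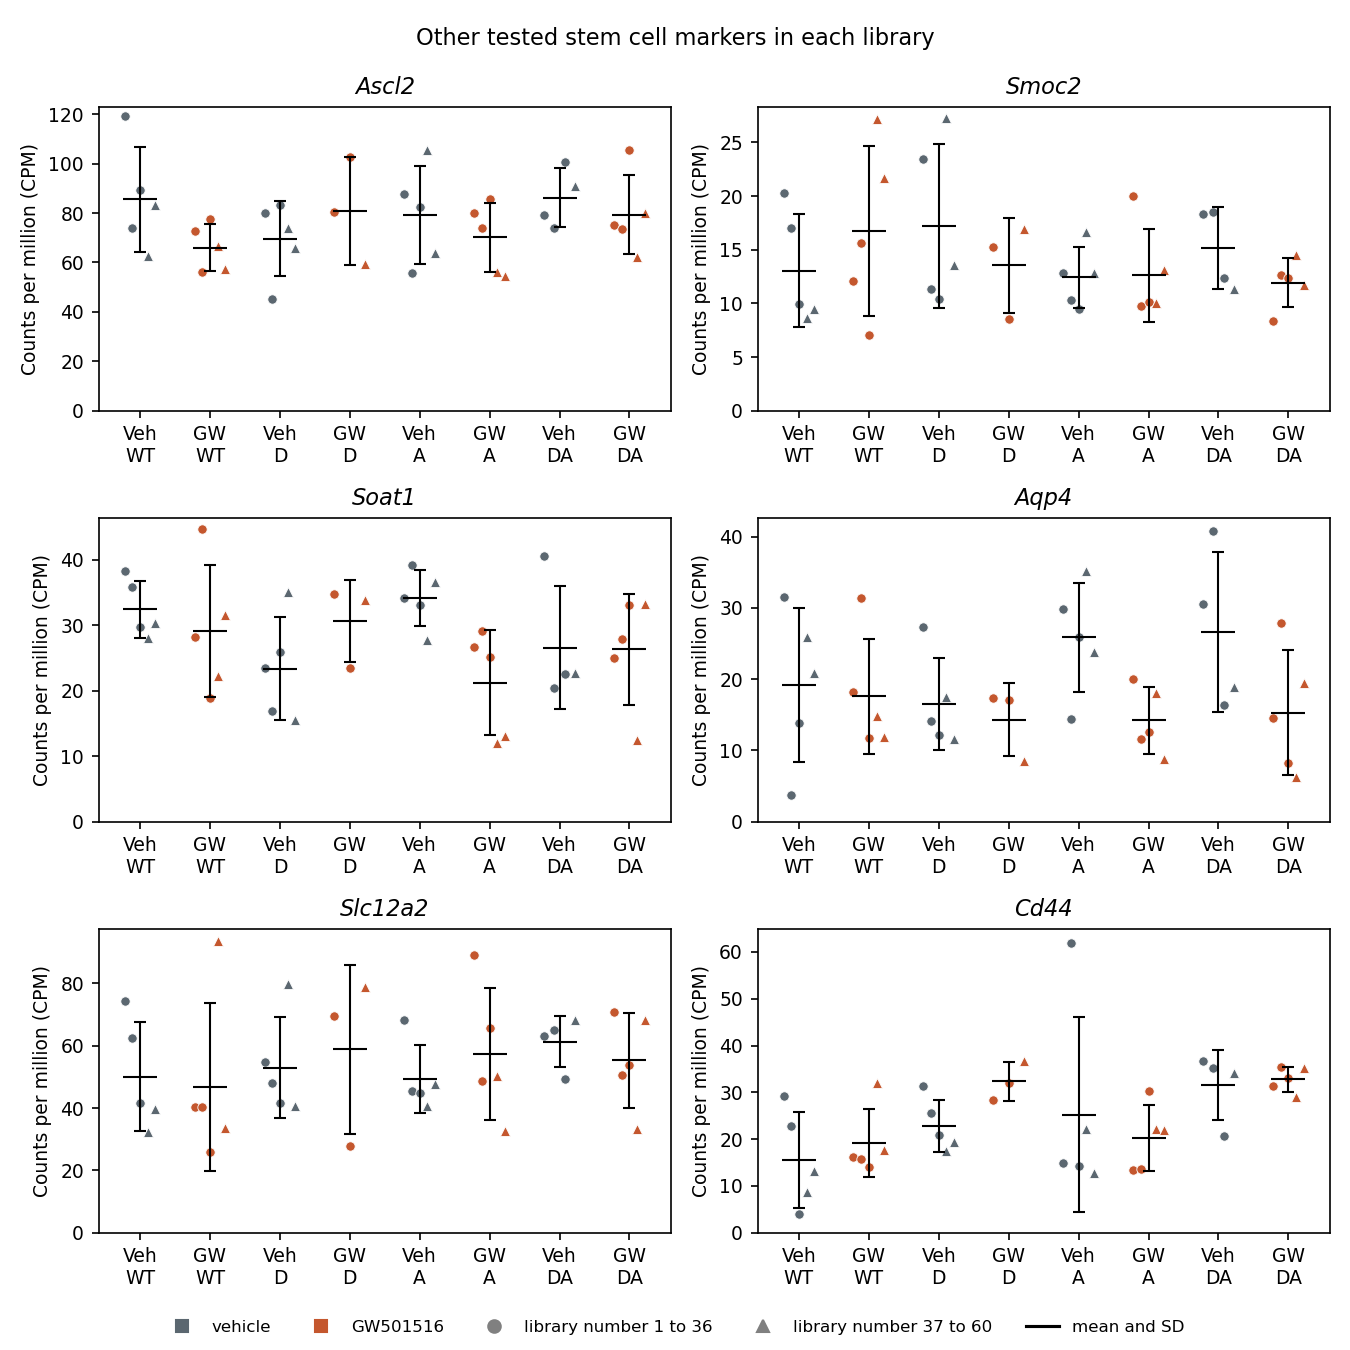
CPM (counts scaled to a library sum of 1000000; vertical axes, each with its own scale) of Ascl2, Smoc2, Soat1, Aqp4, Slc12a2 and Cd44 in each of the 37 libraries by group, with vehicle in grey, GW in orange, circles for libraries 1 to 36, triangles for 37 to 60, and bars for the mean and SD. Groups overlap throughout for Ascl2, Smoc2 and Slc12a2, and Aqp4 is lower with GW in most libraries of A and DA. The DA libraries of Cd44 stand at 20.6 to 36.6 CPM and the GW libraries of D at 28.3 to 36.6 CPM.

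Lgr5 (chr10:115450311-115587780, minus strand), the receptor that defines the crypt base stem cell, had 60 counts over the 37 libraries, 0 to 6 each, and was seen in 25 of them. In WT it had 3 counts in vehicle, all in replicate 2, and 1 count with GW. D and DA each had 8 counts with vehicle and 9 with GW, and A had 11 with either. Pooled over a group, Lgr5 stood at 1.22 CPM in WT with vehicle (exact Poisson 95% interval 0.251 to 3.55) and at 0.439 CPM with GW (0.0111 to 2.45). The pooled level was 3.24 and 7.02 CPM in D, 4.47 and 4.75 CPM in A, and 3.91 and 3.83 CPM in DA, vehicle first. The vehicle and GW intervals of each genotype overlapped, which is not a test of a difference, and the intervals cover counting error only. Fitted without the filter on low counts, Lgr5 passed in none of the 14 comparisons (lowest adjusted p = 0.692, edgeR).

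Axin2 (chr11:108920349-108950783), a feedback inhibitor and widely used readout of Wnt signalling, had 84 counts, 0 to 6 per library. With vehicle, Axin2 had 5 counts in WT, 11 in D, 11 in A and 8 in DA. With GW it had 15, 3, 16 and 15 counts in the same order. In WT this was 2.03 CPM in vehicle (exact Poisson 95% interval 0.658 to 4.73) and 6.58 CPM with GW (3.68 to 10.9), and these intervals overlapped too. GW groups were higher than vehicle in WT, A and DA and lower in D. Without the filter Axin2 did not pass in any comparison (unadjusted p = 0.0393 and adjusted p = 0.788 for GW in WT, edgeR).

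**Figure D4:**
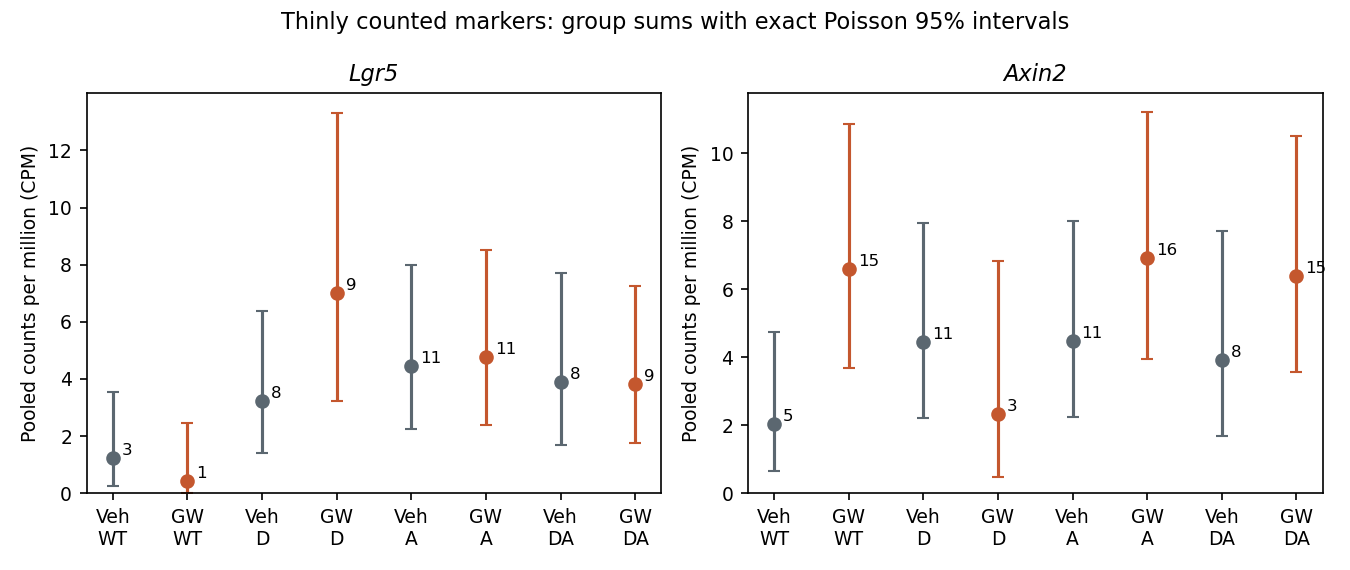
Pooled CPM (vertical axes) of Lgr5 and Axin2 in each group, with exact Poisson 95% intervals for counting error and the summed count beside each point, vehicle in grey and GW in orange. Lgr5 has 3 and 1 counts in the WT groups and 8 to 11 in each knockout group.

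Genes of the same pathways were read from fixed lists, and in the fit without a block none of their tested members was called in the mean GW effect or in the GW effect of any genotype. Of 43 other crypt stem cell signature genes, 13 could be tested, with 7 higher and 6 lower in the mean GW effect and a median of 0.00 in log2. Gpx2, a glutathione peroxidase of the crypt and the list member with the smallest p, had 0.25 ± 0.07 (adjusted p = 0.186, edgeR). It passed within libraries 37 to 60 alone (0.40, adjusted p = 0.00487, edgeR) without the columns with a suffix 2 (0.30, adjusted p = 0.0425) and with the sets as a block (0.25, adjusted p = 0.0480).

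Of 29 Wnt genes 9 could be tested, with 4 higher, 5 lower and a median of -0.06. Id2, a helix-loop-helix inhibitor, had the smallest p (-0.38 ± 0.16, adjusted p = 0.543, edgeR). Of 24 Notch genes 7 could be tested, with 3 higher, 4 lower and a median of -0.04. Numb, which antagonises Notch, led that list with 0.64 ± 0.18 (adjusted p = 0.115, edgeR), and it passed without GW replicate 3 in WT (0.68, adjusted p = 0.0397). Notch pathway genes summed to 287 to 437 CPM per library.

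Dividing cells were represented by 27 tested of 28 proliferation markers, of which 19 were higher and 8 lower, with a median of 0.04. Mki67, the proliferation antigen, had 0.37 ± 0.11 (adjusted p = 0.177, edgeR). Beside the fall of Olfm4, markers of differentiated cells had medians of -0.01 for 22 of 26 enterocyte genes, 0.01 for 14 of 18 Paneth cell genes, 0.14 for 9 of 12 goblet cell genes and 0.36 for 7 of 24 enteroendocrine genes. Of the 22 enterocyte genes, 11 were higher and 11 lower. Fabp2, the intestinal fatty acid binding protein of enterocytes, had 0.38 ± 0.10 (adjusted p = 0.0786, edgeR). Sis, the brush border enzyme sucrase-isomaltase, had -0.50 ± 0.14 (adjusted p = 0.134, edgeR), and Slc5a1, the apical sodium-glucose cotransporter, -0.44 ± 0.15 (adjusted p = 0.305). All of these enterocyte genes passed with the sets as a block, Fabp2 at 0.44 (adjusted p = 0.000519), Sis at -0.51 (0.0335) and Slc5a1 at -0.49 (0.0260, edgeR). Fabp2 and Sis also passed within libraries 37 to 60 alone. Over 11 other settings of the analysis, the sets as a block included, Fabp2 passed in 6, Sis in 3 and Slc5a1 in 2. With each library left out in turn, Fabp2 passed in 4 of 37 fits, Sis in 3 and Slc5a1 in 0.

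The 7 tested enteroendocrine genes all had a mean GW effect above 0, and 7 of 7 were higher in WT, 7 in D and 6 in DA, against 3 higher and 4 lower in A. Summed enteroendocrine markers had 119 to 238 CPM in WT with vehicle and 186 to 245 with GW, and in D 139 to 213 and 229 to 293. In A the sums were 143 to 237 CPM with vehicle and 157 to 227 with GW, and in DA 142 to 226 and 184 to 246. The treatments overlapped in WT, A and DA and did not overlap in D. Sct, the hormone secretin, had 0.44 ± 0.16 (adjusted p = 0.416, edgeR), Chgb, a secretory granule protein, 0.33 ± 0.13 (0.451) and the hormone Cck 0.51 ± 0.23 (0.630). The medians were -0.10 for 2 of 15 tuft cell genes, -0.16 for the single tested stromal gene Pecam1 and 0.12 for 6 regenerative genes, and no immune gene could be tested. Their part in the Olfm4 result was not tested.

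Knockouts against WT in vehicle had no called list member either. With GW, 2 of 22 enterocyte genes were called lower in DA, where 0.592% of all genes were, and 1 of 9 goblet cell genes was called higher in A and in DA, where 0.184% and 0.245% of all genes were. They are named after their values were seen. Fabp2 had -0.83 ± 0.19 (adjusted p = 0.0229, edgeR) and Rbp2, a cellular retinol binding protein, -0.89 ± 0.22 (adjusted p = 0.0382) in DA. The goblet cell gene was Rep15, with 1.55 ± 0.32 in A (adjusted p = 0.0126, edgeR) and 1.71 ± 0.32 in DA (adjusted p = 0.00179), and both comparisons share the GW libraries of WT. Rep15 in DA passed with each library left out in turn, up to an adjusted p of 0.0136. Rep15 in A missed the threshold without GW replicate 1 or 2 in A or GW replicate 2 or 5 in WT (adjusted p 0.0644 to 0.147). Fabp2 missed it without GW replicate 3, 4 or 5 in DA or 2 or 5 in WT (0.0508 to 0.100), and Rbp2 without GW replicate 1, 2, 4 or 5 in DA or 2, 3 or 5 in WT (0.0524 to 0.182). Over 10 other settings with edgeR, DESeq2 or limma-trend, Rep15 in A missed the threshold in 4 (adjusted p up to 0.811, log2 difference down to 0.32). In DA, Fabp2 missed it in 3 of these settings (up to 0.200), Rbp2 in 5 (up to 0.674) and Rep15 in 0.

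As a description, the pattern of Olfm4 over the 37 libraries was compared with every tested gene by Pearson's r on log2 CPM. The highest were Cenpi, a kinetochore protein (r = 0.56), Psat1, of serine synthesis (0.53), Atp5c1, a subunit of ATP synthase (0.51), Snap47 (0.51) and the brush border enzyme Sis (0.51). Taken on residuals from the 8 group means, these r were 0.47, 0.41, 0.34, 0.36 and 0.30. The lowest were Slc9a3r1, a scaffold of the apical membrane (-0.64), Wasf2, an actin regulator (-0.56), Rab8a, a GTPase of apical transport (-0.51), Ubald2 (-0.50) and the nuclear pore protein Tpr (-0.49), with -0.55, -0.37, -0.50, -0.25 and -0.30 on residuals. Libraries shared depth and run, which can enter these values, and genes are not independent replicates.

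Among the 7 tested members the 21 pairwise r ran from -0.08 to 0.49 with a median of 0.20, and 18 were above 0. Olfm4 had r = 0.45 with Soat1, 0.42 with Smoc2 and 0.40 with Slc12a2. None of the other members was among the 5 genes most like Olfm4, which were ranked without removing group means. Taken on residuals from the group means, r with Olfm4 was 0.57 for Slc12a2 and 0.49 for Soat1. Both were above the residual r of each of those 5 genes, of which Cenpi had the highest at 0.47. On residuals r was lower than for Cenpi for Smoc2 (0.41), Cd44 (0.31), Aqp4 (0.23) and Ascl2 (0.16).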

How the data were processed

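Intestinal organoid libraries were analysed from the authors' deposited table of estimated counts per Ensembl gene, rounded to whole numbers. A second deposited table held log2(CPM + 1) values and was used only as a check, in which 88.6% of nonzero values stood for whole counts within 0.01. The build was mm10 and the tools included edgeR 3.26.8, R 3.6.2 and Salmon 1.1.0, per the submitters' processing notes. The handling of molecular identifiers is not given in the sources used here. Of 57 columns, 37 were joined to groups by treatment and genotype in their names. The 20 others were not used: 19 named KD, and 1 of 4 columns for GW in D, where the labels give 3 samples. Replicates are numbered in column order. The suffix 2 on 4 used columns is not explained. The 69 within-group pairs of libraries differed by more than sampling (chi-square per degree of freedom 1.51 to 7.10).

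Symbols and positions came from GENCODE M21. Counts were filtered with filterByExpr by group, scaled with TMM and fitted over 8 groups in 1 model with edgeR 4.0.16 (glmQLFit, glmQLFTest) in R 4.3.3, with Benjamini-Hochberg adjustment over 4902 genes and a threshold of 0.05. CPM in the text are plain counts scaled to a sum of 1000000. For r, log2 CPM used a prior count of 2. The fit was tested on simulated data with independent libraries, which did not include the runs or sets seen in the real libraries. Members and lists were chosen with earlier results of these data known. All members were named whatever their p, and from each list up to 3 genes of smallest p for the mean GW effect where that p was under 0.05, except 1 result that is not reported here. Alternatives were DESeq2 1.42.0 size factors or test, limma-trend 3.58.1, no filter, fewer groups, the runs or sets of library numbers, no suffix columns, leaving out each library, and for the exact tests other pseudocounts and scaling.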

Additional observations from a re-analysis of the deposited data

Results flagged for a closer look

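Over the 7 tested members in each group of 4 or 5 libraries, 6 of 49 cases held a library far from the others by Dixon's test. For independent, normally distributed values chance gives about 1 in 20. The members share libraries and some have low counts, so no excess particular to them can be read from this. Lgr5 gave 2 more, each resting on 1 library with a count beside libraries at 0, to which that chance rate does not apply. Lgr5 stood at 5.67 CPM (3 counts) in vehicle replicate 2 and at 2.24 CPM (1 count) in GW replicate 2 of WT, with all other WT libraries at 0. Cd44 stood high in WT with GW replicate 4 (32.1 CPM) and in A with vehicle replicate 2 (62.0 CPM), and low in DA with vehicle replicate 3 (20.6 CPM). Slc12a2 stood high in WT with GW replicate 4 (93.8 CPM) and in A with vehicle replicate 1 (68.4 CPM). Soat1 stood high in DA with vehicle replicate 1 (40.7 CPM). GW replicate 4 of WT was apart for both Cd44 and Slc12a2. No Olfm4 library stood apart by this test.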

How the results depend on the processing

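The fall of Olfm4 in the mean GW effect kept its direction and passed with DESeq2 size factors, DESeq2, limma-trend, no filter, a block for the runs, no suffix columns and WT, A and DA only, at -0.76 to -0.64 in log2. It also passed with each of the 37 libraries left out in turn (-0.79 to -0.64, adjusted p 0.00091 to 0.0141, edgeR). It did not pass within libraries 1 to 36 or 37 to 60, where 0 members were called in each, with fewer samples. Genes called lower in that effect numbered 4, and 18 without the filter, 0 within 1 to 36 and 13 within 37 to 60. Without the filter 8 to 110 genes were called per comparison, against 0 to 41. In DA 1 member, Olfm4, was called for GW without the filter. In vehicle, Olfm4 against WT changed sign in D within 37 to 60 (-0.026; -0.014 to 0.37 with a library left out), in A within 37 to 60 (-0.059; -0.20 to 0.18 with a library left out) and in DA without suffix columns (-0.089; -0.090 to 0.53 with a library left out). Of the mean GW effects near 0, Ascl2 changed sign within 1 to 36 (0.0097), Smoc2 within 37 to 60 (0.23) and over WT, A and DA (0.0022), and Cd44 within 1 to 36 (-0.16) and over WT, A and DA (-0.0038). Slc12a2 changed sign with limma-trend (-0.032), without the filter (-0.015), within 1 to 36 (-0.093), without suffix columns (-0.050) and over WT, A and DA (-0.025), and ran from -0.069 to 0.089 with a library left out. The cause was not tested. The average over WT, A and DA and the block for sets were added after seeing the data.

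The columns carry no replicate numbers, so the planned pairing by number was not run. With the 6 sets of library numbers as a replicate block, Olfm4 had -0.77 in the mean GW effect and 1 member was called there, with 0 in the other comparisons. Deviations from the group means correlated at -0.044 to 0.42 over the 15 vehicle and GW pairs of a set, above 0.1 in 14, and the median r was 0.18 within and -0.057 between sets. The block called 59 genes in the mean GW effect against 32, 12 against 4 of them lower, and 0 to 86 per comparison. Olfm4 had 12 to 84 counts per library, and Lgr5 and Axin2 0 to 6. The part of depth in the calls of single genotypes was not tested.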

Other observations

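Lgr5 was found in fewer libraries of WT than of the knockouts, a comparison chosen after its values were seen. Over both treatments WT had 4 counts in 2 of 10 libraries, D 17 counts in 7 of 8, A 22 counts in 10 of 10 and DA 17 counts in 6 of 9. Pooled, Lgr5 stood at 0.843 CPM in WT and 4.33 CPM in all 27 knockout libraries, a ratio of 5.14 with a counting interval of 1.90 to 19.5. Against WT the ratio was 5.37 in D (1.75 to 21.9), 5.46 in A (1.86 to 21.8) and 4.59 in DA (1.496 to 18.7). A two-sided permutation test over libraries gave Benjamini-Hochberg adjusted p of 0.0105 in D, 0.00042 in A and 0.0348 in DA over the 3 tests, which share the WT libraries. The tests of D and DA were exact, and that of A used 100000 resamples. The comparison was picked from these same counts, so these p-values describe it and cannot test it. Their adjustment does not cover the other members and comparisons that were seen. In libraries 1 to 36 Lgr5 had 4 counts in WT against 12, 11 and 13 in D, A and DA, and in 37 to 60 it had 0 counts in 4 WT libraries, which allows up to 3, against 5, 11 and 4. In edgeR's quasi-likelihood fit without a filter no comparison of Lgr5 passed over all genes (adjusted p = 0.692 or more), and the 3 knockouts against WT with GW had an unadjusted p of 0.0014, 0.00569 and 0.0163.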
